A study of Rattus norvegicus with 16 samples.

Results

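The genes described here are 8 members of the senescence and p53 pathways, taken by symbol from a table of 31141 rat genes: the cyclin-dependent kinase inhibitors Cdkn1a, Cdkn2a, Cdkn2b and Cdkn2c, the p53 targets Mdm2, Ccng1 and Bax, and the cyclin Ccnd1. Each symbol had 1 row, and all 8 were among the 12119 genes that reached at least 1 FPKM in at least 4 libraries. Messenger RNA of the tibialis anterior, a fast muscle of the lower leg, was sequenced from Wistar-Imamichi rats. There were 6 libraries of rats with the genotype Dmd fed MCTKD (DMD_KD), 6 of rats with the same genotype on the normal diet ND (DMD_ND) and 4 of wild-type rats on ND (WT_ND). All 3 groups were kept on their diet from weaning on and were 9 months old at its end. MCTKD is not spelled out in the labels; in nutrition the letters usually mean a ketogenic diet built on medium-chain triglycerides. Dmd encodes dystrophin, which ties the cytoskeleton of the muscle fibre to the matrix around it, and its loss gives rise to Duchenne muscular dystrophy. The labels name no Dmd allele, no sex and no animal per library, so the p-values below rest on the variation among these samples, part of which can be technical. No wild-type group received MCTKD, so the diet was compared in Dmd-mutant muscle alone.

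Senescence is a lasting exit from the cell cycle, held in place by inhibitors of the cyclin-dependent kinases. The INK4 proteins, made from Cdkn2a, Cdkn2b and Cdkn2c, block the kinases CDK4 and CDK6, which cyclin D1, the product of Ccnd1, activates. Cdkn2a also gives rise, from a start of its own, to ARF, which restrains the p53 ubiquitin ligase MDM2. The transcription factor p53 drives Cdkn1a, whose product p21 blocks CDK2, and it also drives Mdm2, Ccng1 and Bax, the last a pore-forming protein of apoptosis. In muscle p21 is known as well for the exit of myoblasts from the cycle as they differentiate, which does not need p53.

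The libraries held between 17125084 and 28116085 reads assigned to genes. The mitochondrial chromosome took 14.4% to 17.0% of reads in DMD_KD, 11.9% to 14.0% in DMD_ND and 19.7% to 25.1% in WT_ND, and the 10 most abundant genes took 21.4% to 29.6%, 17.7% to 20.7% and 28.7% to 34.9% in the same order; the part of these shares in the results was not tested. Dmd, the mutated gene, averaged 1.36 ± 0.545 FPKM in DMD_KD, 1.76 ± 0.208 FPKM in DMD_ND (SD, n = 6 each) and 7.32 ± 3.32 FPKM in WT_ND (SD, n = 4), and every Dmd-mutant library lay below every WT_ND library. FPKM are fragments per kilobase of gene, scaled for depth, so they can be set side by side between genes. The library DMD_KD replicate 3 stood apart on the second principal component of the tested genes (13.5% of the variance): it was at -57.5, and the remaining DMD_KD libraries ran from -10.2 to 10.2. Values without it are given for some genes and lists only. Other values, among them counts and medians of the gene lists, also shifted without it. Fold changes are differences of group means of log2(FPKM + 1), a scale that shrinks the change of weakly expressed genes. A gene was called changed at a Benjamini-Hochberg adjusted limma p under 0.05.

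Cdkn1a and Ccng1 are textbook targets of p53, and the bases before their starts are shown because both hold a p53 half-site, a motif of 10 letters searched on both strands, which are the same for this palindromic pattern. The bases before Cdkn2a and Cdkn2b are shown beside them because these neighbouring genes were higher together in Dmd-mutant muscle. Each line gives the 250 bases ahead of the annotated start, 5′ to 3′ on the gene's strand, from RefSeq (build GRCr8), with a half-site in capitals.
Cdkn1a, chr20:7150682-7150931, plus strand: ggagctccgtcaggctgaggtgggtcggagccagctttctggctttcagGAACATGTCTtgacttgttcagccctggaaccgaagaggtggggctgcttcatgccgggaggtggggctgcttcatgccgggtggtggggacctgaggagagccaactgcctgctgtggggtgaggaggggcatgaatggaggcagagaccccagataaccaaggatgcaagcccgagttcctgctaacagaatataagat
Ccng1, chr10:25684877-25685126, minus strand: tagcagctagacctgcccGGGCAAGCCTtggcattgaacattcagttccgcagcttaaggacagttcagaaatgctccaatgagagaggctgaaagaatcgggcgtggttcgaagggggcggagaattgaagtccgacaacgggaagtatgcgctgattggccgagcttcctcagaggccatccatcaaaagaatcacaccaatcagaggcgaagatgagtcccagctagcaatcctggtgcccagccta
Cdkn2a, chr5:109107957-109108206, minus strand: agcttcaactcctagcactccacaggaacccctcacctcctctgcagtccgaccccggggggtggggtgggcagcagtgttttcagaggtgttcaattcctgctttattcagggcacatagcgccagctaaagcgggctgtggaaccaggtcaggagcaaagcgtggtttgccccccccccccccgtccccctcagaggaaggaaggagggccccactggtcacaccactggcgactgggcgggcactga
Cdkn2b, chr5:109134856-109135105, minus strand: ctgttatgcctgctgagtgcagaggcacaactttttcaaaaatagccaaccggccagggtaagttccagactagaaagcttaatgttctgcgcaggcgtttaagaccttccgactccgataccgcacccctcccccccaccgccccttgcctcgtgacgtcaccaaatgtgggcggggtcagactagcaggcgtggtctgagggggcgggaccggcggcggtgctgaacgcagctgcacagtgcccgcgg
Promoters of 6 members were matched, counting these 4, and 3 of the 6 held a half-site within 250 bases before and 50 bases after the start. It began at position -201 in Cdkn1a, -232 in Ccng1 and -11 in Cdkn2c, counted from the start. Of all 33469 promoters of that length, 2671 (7.98%) held one. A second half-site with at most 1 mismatch abutted the first in Cdkn1a, where both read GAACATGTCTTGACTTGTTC, and in Ccng1, where both read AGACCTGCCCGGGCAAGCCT. Such a pair stood in 24 of the 33469 promoters (0.0717%); the pair was searched for after the sequences had been seen. A match describes letters and does not show binding.

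The comparison of DMD_ND with WT_ND asks what the Dmd mutation changed on the normal diet. Expression of 6 of the 8 genes was higher in DMD_ND, that of 1 was lower and that of 1 was not called. Over all 12119 tested genes the share called was 65.7%, with 31.5% higher and 34.3% lower, so that a call in itself was common. Cdkn2a, Cdkn2b and Cdkn2c stayed below 1 FPKM in every WT_ND library, so they passed the filter only through Dmd-mutant libraries. The counts and medians of the 8 genes given here include them. The 6 genes were also higher with each library scaled to the same total (TPM). The same 6 genes had every DMD_ND library above every WT_ND library, which held for 26.8% of the tested genes, and Ccng1 had every one below; groups that did not overlap in either direction made up 55.1%. The median log2 fold change of the 8 genes was 1.66, against -0.04 for all tested genes. Against WT_ND, DMD_KD showed 6 genes higher and 2 lower, where 58.3% of tested genes were called (27.3% higher and 31.1% lower), with a median of 1.32 against -0.06. Those 6 had every DMD_KD library above every WT_ND library, as did 20% of tested genes, and Ccng1 had every one below, where 37.2% did not overlap in either direction. The comparisons share libraries and are not independent of each other.

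**Figure D1:**
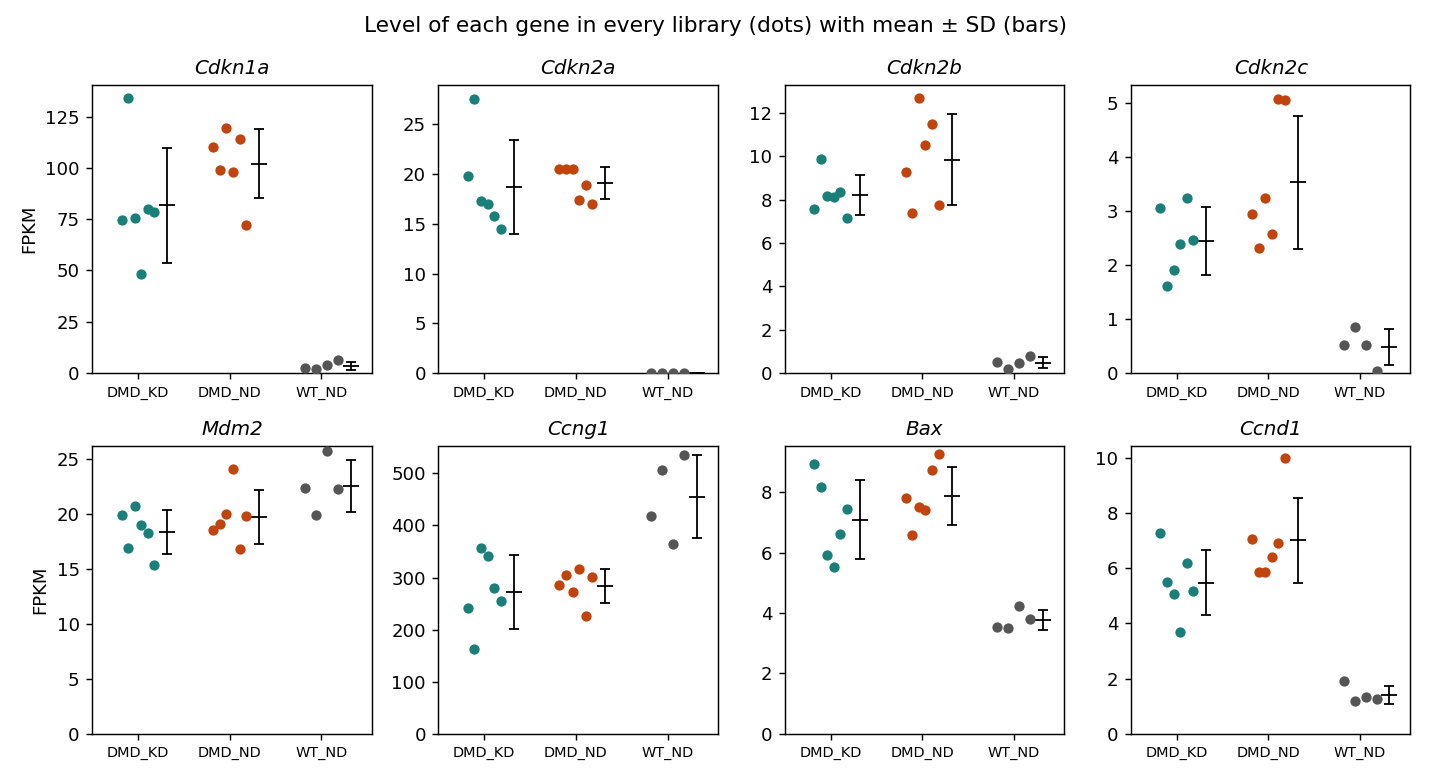
Level of each gene in FPKM in the 16 libraries, a panel per gene with its own axis from 0, with DMD_KD, DMD_ND and WT_ND from left to right; dots are libraries and bars the mean ± SD. Cdkn1a, Cdkn2a, Cdkn2b, Cdkn2c, Bax and Ccnd1 lay higher in every Dmd-mutant library than in any WT_ND library, Ccng1 lay lower, and the Mdm2 groups overlapped.

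Among the inhibitors, Cdkn1a reached the highest level (ENSRNOG00000000521, chr20:7149217-7159585, plus strand, mRatBN7.2 as in the deposited table). Its lowest, median and highest values were 48.5, 77.0 and 134 FPKM in DMD_KD, and 72.3, 105 and 119 FPKM in DMD_ND. The 4 WT_ND libraries had 2.44, 1.75, 4.10 and 6.12 FPKM. No Dmd-mutant library came near the wild-type range, and the lowest of them, DMD_KD replicate 7, still held 2269 reads of the gene, against at most 235 in a WT_ND library. The log2 fold change was 4.56 in DMD_ND against WT_ND (SE 0.26, limma adjusted p = 3.9e-10) and 4.20 in DMD_KD against WT_ND (SE 0.26, adjusted p = 1.6e-09). On the FPKM scale the mean was 28.4-fold higher in DMD_ND and 22.7-fold higher in DMD_KD than in WT_ND. Only 0.107% of tested genes had a larger absolute log2 fold change in DMD_ND against WT_ND.

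Cdkn2a, which encodes p16INK4a and ARF, was the gene with the smallest p of all 12119 in both comparisons with WT_ND (ENSRNOG00000059837, chr5:103984949-104003149, minus strand). Its lowest, median and highest values were 14.5, 17.2 and 27.6 FPKM in DMD_KD and 17.0, 19.7 and 20.5 FPKM in DMD_ND, from 350 to 710 reads and 462 to 637 reads per library. No read of it was counted in any of the 4 WT_ND libraries. The gene was therefore seen in every Dmd-mutant library and in no wild-type library. With a floor of 3 reads in each WT_ND library, 0.188 FPKM on average, its mean was at least 99.1-fold higher in DMD_KD and at least 102-fold higher in DMD_ND, a bound that covers counting error only. The fitted log2 fold change, which is no bound, was 4.33 in DMD_ND against WT_ND (SE 0.13, limma adjusted p = 1.06e-12) and 4.27 in DMD_KD against WT_ND (SE 0.13, adjusted p = 1.47e-12). Values are per gene, so transcripts for p16INK4a and for ARF were not told apart. The deposited table puts the starts of Cdkn2b and Cdkn2a 15.9 kb apart and RefSeq puts them 26.9 kb apart on its own build, so the RefSeq sequence printed above may belong to another of the gene's starts.

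Cdkn2b, which encodes p15INK4b, lies 7530 bases from Cdkn2a on the same strand (ENSRNOG00000006735, chr5:104010680-104019050). The lowest, median and highest levels were 7.14, 8.15 and 9.86 FPKM in DMD_KD, and 7.37, 9.89 and 12.7 FPKM in DMD_ND. WT_ND libraries had 0.514, 0.172, 0.438 and 0.790 FPKM, from 8 to 32 reads. The mutant and wild-type groups did not overlap, and the log2 fold change was 2.87 in DMD_ND against WT_ND (SE 0.15, limma adjusted p = 1.11e-10) and 2.65 in DMD_KD against WT_ND (SE 0.15, adjusted p = 3.62e-10). Its mean FPKM was 20.6-fold higher in DMD_ND and 17.1-fold higher in DMD_KD than in WT_ND.

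Smaller differences were measured for other genes within 500 kb on the log2(FPKM + 1) scale, and they did not follow the order of distance. Because this scale shrinks the change of weakly expressed genes, these differences do not rank the genes by fold of FPKM. Genes of this window below the filter were not tested, and some of them had reads in Dmd-mutant libraries alone. A long non-coding RNA without a symbol (ENSRNOG00000063594) starts 220 bases from the Cdkn2a start on the opposite strand. It averaged 0.884 ± 0.237 FPKM in DMD_KD, 1.09 ± 0.246 FPKM in DMD_ND (SD, n = 6 each) and 0.00867 ± 0.0173 FPKM in WT_ND (SD, n = 4). Its log2 fold change in DMD_ND against WT_ND was 1.04 (SE 0.11, limma adjusted p = 5.14e-07). Mtap, an enzyme of methionine salvage whose start lies 130 kb away, averaged 4.95 ± 0.278, 5.43 ± 0.797 and 3.21 ± 0.485 FPKM in DMD_KD, DMD_ND and WT_ND, and its log2 fold change in DMD_ND against WT_ND was 0.61 (SE 0.10, limma adjusted p = 5.89e-05). At 404 kb, Mir3554, a microRNA gene, averaged 1.49 ± 1.29 FPKM in DMD_KD and 1.74 ± 0.562 FPKM in DMD_ND (SD, n = 6 each) and had no read in WT_ND, with a log2 fold change in DMD_ND against WT_ND of 1.43 (SE 0.28, limma adjusted p = 0.000239). Mir3554 is short (chr5:103599032-103599149), so that its values rest on few reads and its absence from WT_ND is uncertain. Both Mir3554 and the long non-coding RNA passed the filter only through Dmd-mutant libraries. A small nucleolar RNA gene at 83.7 kb (ENSRNOG00000059446) was at 0.60 (SE 0.26, limma adjusted p = 0.0486), and a protein-coding gene at 235 kb (ENSRNOG00000024197) was at 0.17 and not called (adjusted p = 0.501). Whether counting used strand is not stated in the sources used here; the non-coding RNA and Cdkn2a do not overlap in the table.

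**Figure D2:**
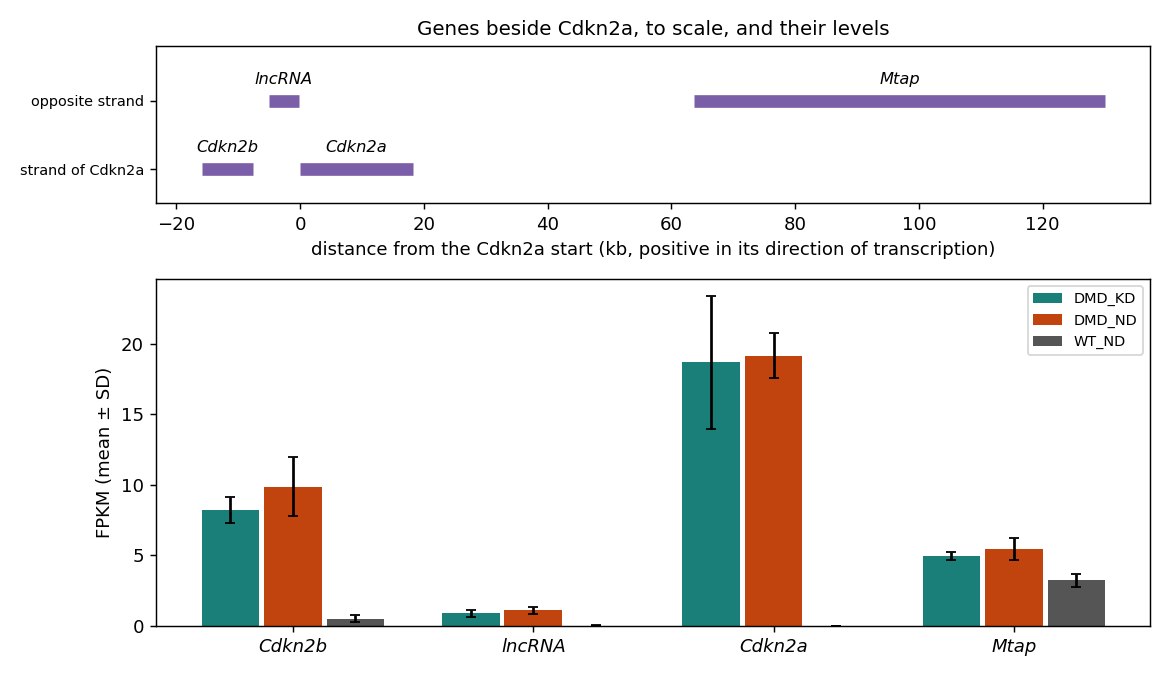
Above, Cdkn2b, the non-coding RNA, Cdkn2a and Mtap drawn to scale by distance in kb from the Cdkn2a start, with a row per strand; below, their mean level in FPKM ± SD in DMD_KD, DMD_ND and WT_ND. In DMD_ND against WT_ND the log2(FPKM + 1) difference was 4.33 for Cdkn2a and 2.87 for Cdkn2b, and 0.61 for Mtap at 130 kb; other genes within 500 kb are not drawn.

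Cdkn2c, which encodes p18INK4c, was the least abundant inhibitor in Dmd-mutant muscle (ENSRNOG00000008956, chr5:124411124-124416278, minus strand). Its lowest, median and highest values were 1.61, 2.43 and 3.24 FPKM in DMD_KD, and 2.31, 3.10 and 5.09 FPKM in DMD_ND. WT_ND libraries had 0.511, 0.859, 0.509 and 0.0429 FPKM, and the last of these rested on 1 read. The mutant and wild-type groups again did not overlap. Its log2 fold change was 1.60 in DMD_ND against WT_ND (SE 0.20, limma adjusted p = 2.23e-06) and 1.23 in DMD_KD against WT_ND (SE 0.20, adjusted p = 5.74e-05).

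Ccnd1, whose cyclin partners CDK4 and CDK6 in early G1, rose as well (ENSRNOG00000020918, chr1:200089002-200098602, minus strand). Across libraries the lowest, median and highest values were 3.70, 5.33 and 7.26 FPKM in DMD_KD, and 5.87, 6.65 and 9.998 FPKM in DMD_ND. WT_ND libraries had 1.90, 1.19, 1.32 and 1.25 FPKM, all below the mutant libraries. The log2 fold change was 1.72 in DMD_ND against WT_ND (SE 0.15, limma adjusted p = 5.34e-08) and 1.41 in DMD_KD against WT_ND (SE 0.15, adjusted p = 8.24e-07). An activator of the G1 kinases was thus higher in the same libraries as 4 inhibitors.

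Of the p53 targets Bax, Ccng1 and Mdm2, Bax was higher in Dmd-mutant muscle (ENSRNOG00000020876, chr1:95938808-95945368, minus strand). From lowest over median to highest, it had 5.53, 7.02 and 8.93 FPKM in DMD_KD, and 6.58, 7.65 and 9.25 FPKM in DMD_ND. WT_ND libraries had 3.54, 3.50, 4.22 and 3.81 FPKM, below every mutant library. The log2 fold change was 0.89 in DMD_ND against WT_ND (SE 0.12, limma adjusted p = 5.97e-06) and 0.75 in DMD_KD against WT_ND (SE 0.12, adjusted p = 5.57e-05). Bax shares 918 bases with Ftl1 (ENSRNOG00000064385), the ferritin light chain, on the same strand, and Ftl1 was higher by 1.90 on the log2 scale in DMD_ND against WT_ND (SE 0.17, limma adjusted p = 6.39e-08), at means of 156, 151 and 40.2 FPKM in DMD_KD, DMD_ND and WT_ND. No source used here says how reads in the shared bases were assigned, so the value of Bax is uncertain.

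Ccng1, which encodes cyclin G1, was the most abundant of the 8 genes in every group (ENSRNOG00000003256, chr10:25176234-25181641, minus strand). Its lowest, median and highest values were 162, 267 and 356 FPKM in DMD_KD, and 226, 293 and 317 FPKM in DMD_ND. WT_ND libraries had 418, 506, 364 and 535 FPKM, above every mutant library. The log2 fold change was -0.67 in DMD_ND against WT_ND (SE 0.19, limma adjusted p = 0.0057) and -0.77 in DMD_KD against WT_ND (SE 0.19, adjusted p = 0.0027), whereas with each library scaled to the same total (TPM) it was 0.34 (adjusted p = 0.286) and -0.02 (adjusted p = 0.946). That scaling moves the median of all tested genes by 0.86 in DMD_ND against WT_ND and by 0.62 in DMD_KD against WT_ND. Relative to the median gene under TPM, Ccng1 was at -0.48 and -0.59 in these comparisons.

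Mdm2, the ligase that marks p53 for degradation, lay between 15.4 and 25.7 FPKM in all libraries (ENSRNOG00000006304, chr7:53290664-53314915, minus strand). Levels had a lowest, median and highest value of 15.4, 18.6 and 20.7 FPKM in DMD_KD, and 16.8, 19.5 and 24.1 FPKM in DMD_ND. WT_ND libraries had 22.4, 19.9, 25.7 and 22.3 FPKM, and all 3 groups overlapped. The log2 fold change in DMD_ND against WT_ND was -0.19 (SE 0.11, 95% interval -0.42 to 0.05, limma adjusted p = 0.152), and that in DMD_KD against WT_ND was -0.29 (SE 0.11, adjusted p = 0.0372), whereas TPM scaling gave 0.80 (adjusted p = 0.000412) and 0.43 (adjusted p = 0.0328). Relative to the median gene under TPM, these are -0.03 and -0.13. The call in DMD_KD against WT_ND was lost without any 1 of 5 libraries: the limma adjusted p was 0.0560 without DMD_KD replicate 9, 0.0824 without DMD_KD replicate 10, and 0.0660, 0.124 and 0.0627 without WT_ND replicates 1, 4 and 9.

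**Figure D3:**
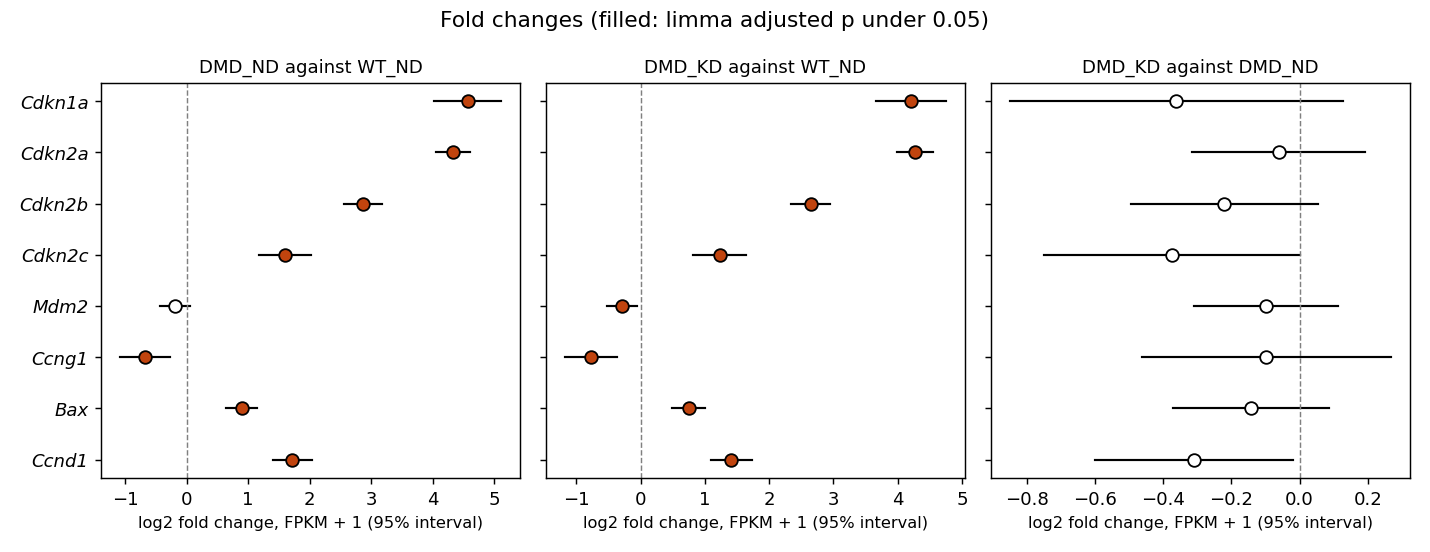
Log2 fold change of the 8 genes on the log2(FPKM + 1) scale with its 95% limma interval, for DMD_ND against WT_ND, DMD_KD against WT_ND and DMD_KD against DMD_ND; filled points passed an adjusted p under 0.05, and the right panel has a narrower axis. Changes against WT_ND ran from -0.67 (Ccng1) to 4.56 (Cdkn1a) in DMD_ND, while in DMD_KD against DMD_ND all 8 points were open and below 0.

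The comparison of DMD_KD with DMD_ND asks what MCTKD changed in Dmd-mutant muscle. None of the 8 genes passed the test by limma on FPKM or by limma voom on recovered reads, and 1 of them, Ccnd1, had an unadjusted p under 0.05. Over all tested genes 0.00825% were called, a single gene, and 14.3% had an unadjusted p under 0.05. All 8 log2 fold changes were negative, with a median of -0.18 against -0.01 for all tested genes. For Ccnd1 it was -0.31 (95% interval -0.60 to -0.02, limma adjusted p = 0.327). For Cdkn2a it was -0.06 (95% interval -0.31 to 0.19, limma adjusted p = 0.822), the smallest difference of the 8. Cdkn1a stood at -0.36 (95% interval -0.85 to 0.13, limma adjusted p = 0.449) and Cdkn2c at -0.37 (95% interval -0.75 to 0.00, limma adjusted p = 0.350). For Cdkn2b, Bax, Mdm2 and Ccng1 the values were -0.22, -0.14, -0.10 and -0.10, with adjusted limma p of 0.420 to 0.799. In each of the 8 genes the DMD_KD and DMD_ND libraries overlapped, where 1.48% of tested genes did not. TPM scaling, which moves the median gene by -0.24 in this comparison, left all 8 negative and none called. With all libraries and the deposited scaling, the intervals leave room for differences of up to 0.85 on the log2 scale in Cdkn1a, and of up to 0.31 in Cdkn2a. These limits depend on the libraries and the scaling. Without DMD_KD replicate 3 the intervals reached -0.96 in Cdkn1a and -0.35 in Cdkn2a, and under TPM the Cdkn2a difference itself was -0.33.

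DMD_KD replicate 3 was the highest DMD_KD library for Cdkn1a, Cdkn2a and Cdkn2b and the lowest for Ccng1 and Cdkn2c. Without it, Cdkn1a averaged 71.4 ± 13.0 FPKM in DMD_KD (SD, n = 5), and its log2 fold change against DMD_ND was -0.51 (95% interval -0.96 to -0.07, limma adjusted p = 0.368). Cdkn2a then had a log2 fold change of -0.17 (adjusted p = 0.435) against DMD_ND, and Ccng1 one of 0.04 (adjusted p = 0.941), with the sign turned. None of the 8 genes was called without this library. The 6 genes higher in DMD_KD against WT_ND and the 2 lower stayed called without it, Mdm2 with an adjusted p of 0.0463.

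The order of the genes by FPKM differed between the groups. In DMD_KD and in DMD_ND, Ccng1 came first and Cdkn1a second in all libraries, and Cdkn2c came last in all of them. Cdkn2a and Mdm2 were neighbours in that order and did not differ beyond their spread: Mdm2 was above Cdkn2a in 5 of 6 DMD_KD libraries with a lower mean, and in 2 of 6 DMD_ND libraries with a higher one. Cdkn2b was above Bax in 4 of 6 DMD_KD and 5 of 6 DMD_ND libraries, so that these neighbours overlapped as well. In WT_ND the order was Ccng1, Mdm2, Bax, Cdkn1a and Ccnd1, with Bax above Cdkn1a in 3 of 4 libraries. Cdkn2c and Cdkn2b came next, each above the other in 2 of 4 WT_ND libraries, and Cdkn2a at 0 was last. The coefficient of variation of Cdkn1a was 34.2% in DMD_KD and 16.5% in DMD_ND, and that of Cdkn2a was 25.3% in DMD_KD and 8.45% in DMD_ND, with DMD_KD replicate 3 the highest library of its group for both.

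Genes whose profile over the 16 libraries lay nearest to each of the 8 were listed by the root-mean-square difference of centred log2(FPKM + 1) values. For Cdkn1a they were Mymk, which encodes the myoblast fusion protein myomaker, at 0.27, then Col1a1, a chain of type I collagen, at 0.36, and Cdkn2a at 0.37. Mymk averaged 26.8 ± 7.12 FPKM in DMD_KD, 36.4 ± 13.5 FPKM in DMD_ND (SD, n = 6 each) and 0.452 ± 0.458 FPKM in WT_ND (SD, n = 4). For Cdkn2a they were the matrix gene Mfap4, the lipid carrier Apoe and the proteoglycan Bgn, and for Cdkn2b they were Ncam1, Map1a and Rab31. Cdkn2c lay nearest to Hmgn1, Ptma and Htr2b, Ccnd1 to Septin9, Pfkp and Stambpl1, and Bax to Cers2, Snx1 and Fchsd1. Mdm2 lay nearest to Tars1, Pja1 and Stat4, and Ccng1 to Zbtb18, Cert1 and Zfp24. The lists describe likeness of profile and were not tested.

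Other targets of p53 did not move one way. Of 26 listed, 21 passed the filter on low values. Here and in the lists that follow, a gene low in WT_ND, such as Bbc3, could pass the filter only through Dmd-mutant libraries, and the counts include such genes. In DMD_ND against WT_ND 9 were higher, 5 were lower and 7 were not called, with a median log2 fold change of 0.19. The shares over all tested genes were 31.5% higher and 34.3% lower. Under TPM scaling 17 were higher and 1 lower, where 70.7% of all tested genes were higher and 5.94% lower. The BH3-only genes Bbc3 (PUMA) and Pmaip1 (NOXA), which promote apoptosis, were higher by 1.15 (SE 0.17, limma adjusted p = 1.25e-05) and by 0.96 (SE 0.19, adjusted p = 0.000273). Bbc3 averaged 1.83 ± 0.511 FPKM in DMD_KD, 2.10 ± 0.698 FPKM in DMD_ND (SD, n = 6 each) and 0.371 ± 0.128 FPKM in WT_ND (SD, n = 4). The kinase gene Plk3 was higher by 1.07 (SE 0.15, limma adjusted p = 7.76e-06). Among the lower genes, Sesn1, a sensor of amino acids and redox stress, averaged 10.9 ± 2.02 FPKM in DMD_KD, 8.15 ± 0.968 FPKM in DMD_ND and 22.1 ± 5.39 FPKM in WT_ND. Its log2 fold change in DMD_ND against WT_ND was -1.32 (SE 0.15, limma adjusted p = 8.36e-07) and stayed negative under TPM at -0.39. Rrm2b, a subunit of the p53-dependent ribonucleotide reductase, was lower as well, at -1.41 on the log2 scale (SE 0.23, limma adjusted p = 3.45e-05), and at -0.55 under TPM. Against WT_ND, DMD_KD showed 7 of the 21 higher, 2 lower and 12 not called. In that comparison 27.3% of all tested genes were higher and 31.1% lower. Against DMD_ND, DMD_KD showed none of the 21 called by limma.

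**Figure D4:**
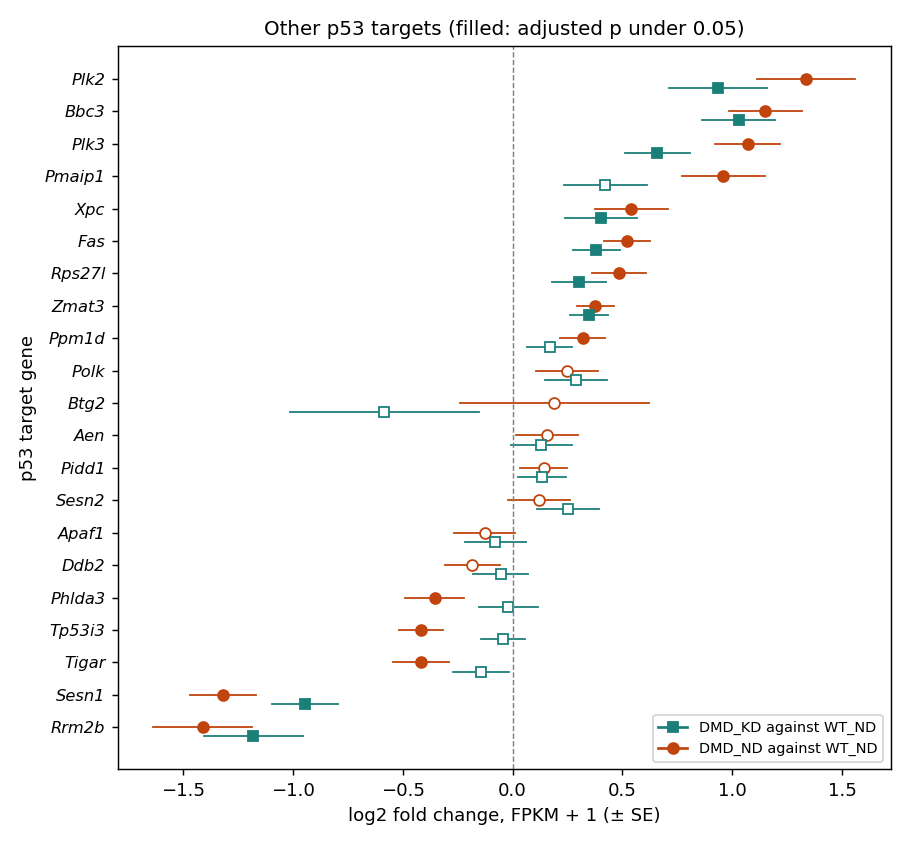
Log2 fold change (log2(FPKM + 1) scale, ± SE) of the 21 other p53 targets that passed the filter, squares for DMD_KD against WT_ND and circles for DMD_ND against WT_ND; filled symbols passed an adjusted p under 0.05. Plk2, Bbc3, Plk3 and Pmaip1 lay at the top in DMD_ND against WT_ND, and Sesn1 and Rrm2b at the bottom.

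Among regulators of the pathway, Usp7, Mdm4 and Hipk2 were lower in DMD_ND than in WT_ND under the deposited scaling, while under TPM only Hipk2 of these kept a negative sign. The deubiquitinase gene Usp7, which stabilises both MDM2 and p53, was at -0.62 (SE 0.09, limma adjusted p = 2.13e-05), but at 0.30 under TPM. Mdm4, which encodes an inhibitor of p53, was at -0.86 (SE 0.18, limma adjusted p = 0.000359) and at 0.03 under TPM. Hipk2, the gene of a kinase that phosphorylates p53, was at -1.27 (SE 0.23, limma adjusted p = 0.000114) and remained negative under TPM at -0.50.

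Among 14 other inhibitors, cyclins, kinases and pocket proteins of G1 that passed the filter, 9 were higher in DMD_ND than in WT_ND, 2 lower and 3 not called. Under TPM 12 were higher and none lower. Over all tested genes 31.5% were higher and 34.3% lower, and under TPM 70.7% were higher and 5.94% lower. Cdkn1c, the gene of the inhibitor p57, averaged 7.62 ± 3.33 FPKM in DMD_KD, 7.12 ± 1.45 FPKM in DMD_ND (SD, n = 6 each) and 2.58 ± 0.473 FPKM in WT_ND (SD, n = 4), a log2 fold change of 1.17 in DMD_ND against WT_ND (SE 0.21, limma adjusted p = 0.000117). The kinase genes Cdk2 and Cdk6 were higher by 0.92 (limma adjusted p = 4.72e-05) and by 0.84 (adjusted p = 1.45e-05). Rbl2, a pocket protein gene of resting cells, was at -0.95 (SE 0.12, limma adjusted p = 3.93e-06) and at -0.05 under TPM. Of 17 genes of S phase and mitosis only 7 passed the filter. In DMD_ND against WT_ND 5 of them were higher, where 31.5% of all tested genes were. Under TPM all 7 were higher, where 70.7% of all tested genes were. Among the 5, Mcm3, a helicase subunit, was higher by 1.11 (SE 0.19, limma adjusted p = 7.35e-05). Mki67, Top2a and 8 others stayed below the filter and were not tested.

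In the BCL2 family, to which Bax belongs, 9 of 10 tested genes were higher in DMD_ND than in WT_ND and 1 was not called. Their median log2 fold change was 0.96. The share higher over all tested genes was 31.5%. Bid, which activates BAX once cleaved, averaged 22.2 ± 3.74 FPKM in DMD_KD, 21.7 ± 3.05 FPKM in DMD_ND (SD, n = 6 each) and 2.60 ± 1.11 FPKM in WT_ND (SD, n = 4), a log2 fold change of 2.70 in DMD_ND against WT_ND (SE 0.18, limma adjusted p = 1.79e-09). The protective member Bcl2a1, abundant in blood cells, was higher by 3.13 (SE 0.24, limma adjusted p = 8.89e-09). Genes that promote and genes that restrain apoptosis were thus both among those higher.

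Of 25 genes of the senescence-associated secretome, 16 passed the filter. All of these 16 were higher in DMD_ND than in WT_ND, as were 31.5% of all tested genes. The median log2 fold change of the 16 was 1.82. The other 9, among them Il6, Il1a and Tnf, were below the filter and not tested, and a gene low in WT_ND could pass the filter only through Dmd-mutant libraries. Timp1, an inhibitor of matrix proteases, averaged 82.2 ± 21.2 FPKM in DMD_KD, 106 ± 51.6 FPKM in DMD_ND (SD, n = 6 each) and 2.57 ± 1.05 FPKM in WT_ND (SD, n = 4), a log2 fold change of 4.84 in DMD_ND against WT_ND (SE 0.28, limma adjusted p = 5.79e-10). In DMD_KD against DMD_ND all 16 were negative, with a median of -0.44, and none was called by limma. In the same comparison 11 of 12 macrophage markers (median -0.15), 8 of 9 markers of fibro-adipogenic progenitors (-0.36) and 8 of 11 of satellite cells and regeneration (-0.36) were negative, and all 8 markers of the muscle fibre were positive (0.46); their part in the values of the secretome was not tested. Without DMD_KD replicate 3 the medians in this comparison were -0.38 for the secretome and -0.17 for macrophage markers. They were then -0.36 for fibro-adipogenic progenitors, -0.38 for satellite cells and regeneration and 0.30 for the muscle fibre. The chemokine Ccl2 was at -1.46 (SE 0.38, limma adjusted p = 0.140) and the protease Mmp3 at -0.81 (SE 0.21, adjusted p = 0.140) in that comparison. Ccl2 averaged 11.2 ± 4.76 FPKM in DMD_KD and 40.0 ± 40.6 FPKM in DMD_ND (SD, n = 6 each). Against WT_ND, DMD_KD showed 13 of the 16 higher and 3 not called, where 27.3% of all tested genes were higher.

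Of the chromatin and lysosomal markers of senescence, Glb1, which encodes the lysosomal beta-galactosidase behind the senescence stain, averaged 7.82 ± 1.17 FPKM in DMD_KD, 8.15 ± 0.915 FPKM in DMD_ND (SD, n = 6 each) and 1.76 ± 0.198 FPKM in WT_ND (SD, n = 4), a log2 fold change of 1.72 in DMD_ND against WT_ND (SE 0.11, limma adjusted p = 1.22e-09). Lmnb1, the lamin that senescent cells are known to lose, was higher by 0.56 (SE 0.17, limma adjusted p = 0.00645). Of the 6 tested, 2 were higher, 2 lower (H2ax and Macroh2a1, both positive under TPM) and 2 not called, shares near the 31.5% higher and 34.3% lower of all tested genes. Most of the 11 tested regulators of the INK4 locus are Polycomb genes, whose products repress it in dividing cells, but not every one is a repressor. They were higher in no case, and 4 of 11 were lower in DMD_ND than in WT_ND, while under TPM 7 were higher and none lower. Of all tested genes 34.3% were lower and 31.5% higher under the deposited scaling, and 70.7% were higher under TPM. The share lower under the deposited scaling and the share higher under TPM are thus near those of genes at large. The absence of higher genes under the deposited scaling is not. The largest of these 4 was in Cbx7, at -0.74 (SE 0.11, limma adjusted p = 2.05e-05) and at 0.17 under TPM. In DMD_KD against WT_ND 4 of the 11 were lower, where 31.1% of all tested genes were. Without DMD_KD replicate 3 it was 7 of the 11, where 34.1% of all tested genes were lower. In DMD_ND against WT_ND the fit without that library called 6 of the 11 lower, where 36.7% of all tested genes were.

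**Figure D5:**
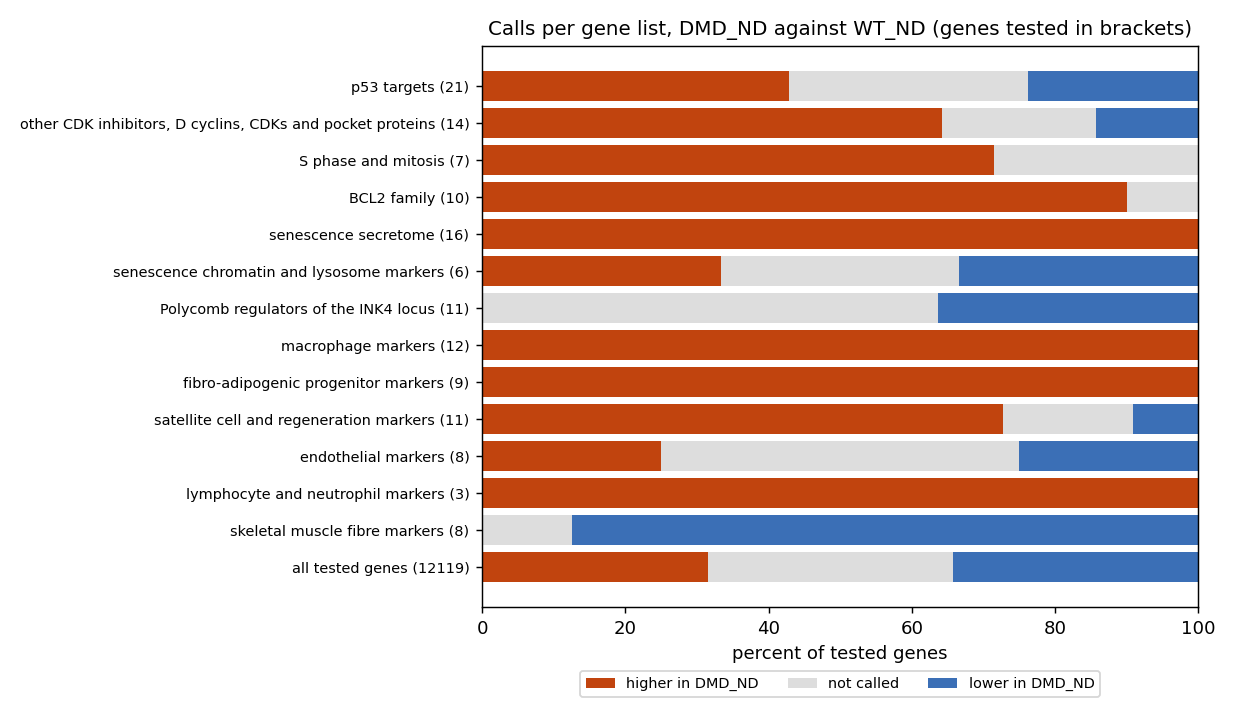
Percent of tested genes of each list called higher, not called or called lower in DMD_ND against WT_ND, with the number tested in brackets and all 12119 tested genes in the bottom row. The secretome, macrophage and fibro-adipogenic progenitor lists were called higher throughout, the 21 p53 targets split 9 higher to 5 lower, and muscle fibre markers were called lower in 7 of 8.

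Tested markers of macrophages, fibro-adipogenic progenitors, lymphocytes and neutrophils moved with the 6 genes that were higher in Dmd-mutant muscle. So did most markers of satellite cells and regeneration, while endothelial markers split and most markers of the muscle fibre were lower. The part of these cell types in the results of the 6 genes was not tested. For the counts that follow, 31.5% of all tested genes were higher in DMD_ND than in WT_ND and 34.3% lower. Under TPM 70.7% were higher and 5.94% lower. All 12 macrophage markers were higher in DMD_ND than in WT_ND. Their summed level was 403 to 657 FPKM in DMD_KD, 444 to 868 FPKM in DMD_ND and 27.6 to 69.4 FPKM in WT_ND. The 9 tested markers of fibro-adipogenic progenitors were higher as well, with sums of 988 to 1687 FPKM in DMD_KD, 1237 to 2415 FPKM in DMD_ND and 144 to 329 FPKM in WT_ND. Of 11 markers of satellite cells and regeneration, 8 were higher, 1 lower (Cdh15) and 2 not called (Pax7 and Myod1), while under TPM 11 were higher. Their sums were 171 to 269, 225 to 378 and 51.1 to 69.0 FPKM in DMD_KD, DMD_ND and WT_ND. The 3 tested lymphocyte and neutrophil markers were higher, while Cd3e, Cd3d, Cd79a and Ms4a1 were below the filter in these libraries and Cd3d was at 0 in every WT_ND library. Endothelial markers split, 2 of 8 higher and 2 lower, with sums of 69.7 to 92.9, 68.1 to 94.1 and 72.5 to 93.5 FPKM in the same order. Markers of the muscle fibre were abundant in every library, and 7 of 8 were lower in DMD_ND than in WT_ND (under TPM, 3 lower and 1 higher). Their sums were 35111 to 114999 FPKM in DMD_KD, 26634 to 46203 FPKM in DMD_ND and 62566 to 115714 FPKM in WT_ND. In whole muscle, fewer or more cells of a type and less or more RNA per cell cannot be told apart. In DMD_KD against DMD_ND no gene of any of these lists was called by limma, and the signs of their differences stand beside the secretome above.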

How the data were processed

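Polyadenylated RNA of frozen tibialis anterior was sequenced; the library may have been directional or not, per the labels' protocols. Reads were processed with HISAT2 2.0.5 and featureCounts 1.5.0-p3 on mRatBN7.2, per the submitters' processing notes; the sources used here give no strand setting or annotation release. The authors deposited FPKM for 31141 genes with positions and lengths, per the file headers. FPKM times gene length was a whole multiple of 1 read's worth (100% of values within 0.05), and the library size behind it was a median-of-ratios size factor times a constant, so the values are already scaled between libraries. The recovered reads numbered 17125084 to 28116085 per library; intervals and floors cover counting error only.

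Columns were matched to samples by name and samples to groups by genotype and diet. Tests used limma 3.58.1 (R 4.3.3) on log2(FPKM + 1) in 1 model of group means over all 16 libraries (13 residual degrees of freedom, trend and robust options), for 12119 genes of at least 1 FPKM in at least 4 libraries. Two-sided p-values had Benjamini-Hochberg adjustment over these genes. A pseudocount of 0.1, other filters, TPM scaling, 2-group fits, limma voom on recovered reads, library weights, a replicate block and leaving out each library were tried as alternatives. Same-numbered libraries did not deviate together (correlations of -0.66 to 0.41), so the numbers were not used as pairs in the results reported.

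The 8 genes and the 14 lists (191 entries) were chosen with earlier results of these data known, and no set test was run. Of each list, up to 4 genes with the smallest p in DMD_ND against WT_ND could be named, and up to 2 in DMD_KD against DMD_ND. The 3 nearest profiles of each of the 8 genes could be named too. Dmd, Plk2, Cdh15, Pax7, Myod1 and Ftl1 were named outside that rule, after their values were seen. So were the non-member genes beside Cdkn2a and genes given as not tested. Eda2r, E2f1, Bcl2, Hrk, Hmgb2, Ly6a, Myh1 and Ep300 were not analysed here, and some listed genes are not reported here. Promoter sequences are from RefSeq (GRCr8); those of Bax and Ccnd1 were not used here.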

Additional observations from a re-analysis of the deposited data

Results flagged for a closer look

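Within groups of 4 to 6 libraries, the highest or lowest library was set against the rest of its group for each gene, in 23 groups. In 2 of them a library stood apart by Dixon's criterion, where chance flags about 1 in 20 groups. Cdkn1a was at 134 FPKM in DMD_KD replicate 3, and the other 5 DMD_KD libraries lay between 48.5 and 80.0 FPKM. Ccnd1 was at 9.998 FPKM in DMD_ND replicate 11, and the other 5 DMD_ND libraries lay between 5.87 and 7.06 FPKM.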

How the results depend on the processing

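Of 445 values of single genes recomputed under other settings, 430 kept their direction and their side of the threshold, 9 lost a call and 6 changed sign. TPM scaling turned Ccng1 in DMD_ND against WT_ND to 0.34, and Mdm2 to 0.80 in DMD_ND against WT_ND and 0.43 in DMD_KD against WT_ND, because it moves the median of all genes; its calls were 8564 higher to 720 lower in DMD_ND against WT_ND and 6930 to 573 in DMD_KD against WT_ND, in place of 3815 to 4152 and 3304 to 3764. A weight per library gave Ccng1 0.037 in DMD_KD against DMD_ND. With a mean of at least 5 FPKM, which tests fewer genes, 4361 were called in DMD_ND against WT_ND and 3950 in DMD_KD against WT_ND. The count in DMD_KD against DMD_ND, 1 gene, was 2 in a fit of these groups alone, 93 with a weight per library, 0 with the replicate block and 1 to 7 with 1 library left out (7 without DMD_KD replicate 9, 2 without DMD_ND replicate 7); the cause was not tested, and none of the 8 genes was among the calls. Leaving out 1 library gave Ccng1 -0.18 to 0.042 and Cdkn2a -0.17 to 0.0022 in that comparison. Of the 8 genes, 7 to 8 stayed called in DMD_KD against WT_ND and 7 in DMD_ND against WT_ND. Replicate numbers did not pair the libraries: the shared numbers that correlated best with their own were 1 of 4 in DMD_KD against DMD_ND, 1 of 3 in DMD_KD against WT_ND and 2 of 2 in DMD_ND against WT_ND, the last with correlations of -0.015 and 0.063. With the replicate block 5852 genes were called in DMD_ND against WT_ND and 5190 in DMD_KD against WT_ND, and Mdm2 in DMD_KD against WT_ND was at -0.24 (limma adjusted p = 0.221).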
